A study of Homo sapiens with 8 samples.

Results

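The genes described here are 38 that a beating heart muscle cell is known for: proteins of the thin and thick filaments, the calcium release and ion channels, the gap junction proteins and the transcription factors of the cardiac lineage. They were taken by symbol from 2 tables of gene expression, and all 38 were found among the 19479 genes listed. The cells were AC16, an established human line that the labels call a human cardiomyocyte line, and its RNA was sequenced in 8 libraries, 2 per group. In the 25 to 50 mM group, cells kept at 25 mM glucose received 25 mM more for 24 h, and the 25 mM group stayed at that level. In the 5 to 50 mM group, cells kept at 5 mM received 45 mM more for 24 h, and the 5 mM group stayed at that level. All groups were grown in the same serum-containing medium and carried no genetic change or drug that the labels name. The design text calls the replicates technical, so the p-values below measure the spread between libraries and not between cultures. No library with another osmotic agent was analysed here, so added glucose and added osmolarity cannot be told apart.

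In a cardiomyocyte, an electrical impulse opens L-type calcium channels, the entering calcium opens ryanodine receptors on the sarcoplasmic reticulum, and calcium binding to troponin C lets myosin pull on actin. SERCA pumps and the sodium-calcium exchanger then clear the calcium, and connexins carry the impulse to the next cell. The program is switched on during heart development by factors of the GATA, NK2, T-box, HAND and MEF2 families, together with SRF and its partner myocardin, which bind CArG boxes in the promoters of muscle genes.

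The promoters of 4 of these genes are shown because they carry a CArG or a MEF2 box in the 250 bases before the start site and yet their genes stood at very different levels. The sequences are from RefSeq, GRCh38.p14, 5′ to 3′ on the gene's strand, and capitals mark the matches. ACTC1 (chr15:34795550-34795799, minus strand) holds a CArG box and a TATAAA, MYL7 (chr7:44141333-44141582, minus strand) a CArG box, and ATP2A2 (chr12:110280366-110280615, plus strand) a pair of overlapping MEF2 boxes. CASQ2 (chr1:115768715-115768964, minus strand) holds 1 MEF2 box.
ACTC1: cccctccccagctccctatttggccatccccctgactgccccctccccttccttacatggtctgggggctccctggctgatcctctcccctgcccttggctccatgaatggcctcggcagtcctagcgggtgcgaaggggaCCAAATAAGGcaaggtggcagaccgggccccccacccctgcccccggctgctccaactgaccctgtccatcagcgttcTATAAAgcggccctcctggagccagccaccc
MYL7: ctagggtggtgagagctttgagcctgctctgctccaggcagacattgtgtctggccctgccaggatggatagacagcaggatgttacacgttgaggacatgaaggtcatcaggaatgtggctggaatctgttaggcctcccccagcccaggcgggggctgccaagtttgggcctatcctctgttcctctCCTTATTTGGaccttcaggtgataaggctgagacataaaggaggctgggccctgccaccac
ATP2A2: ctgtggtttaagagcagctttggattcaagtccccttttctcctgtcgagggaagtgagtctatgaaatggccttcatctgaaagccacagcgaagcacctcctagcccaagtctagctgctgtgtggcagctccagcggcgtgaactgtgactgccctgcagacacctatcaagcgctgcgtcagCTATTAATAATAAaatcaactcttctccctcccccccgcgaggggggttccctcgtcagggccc
CASQ2: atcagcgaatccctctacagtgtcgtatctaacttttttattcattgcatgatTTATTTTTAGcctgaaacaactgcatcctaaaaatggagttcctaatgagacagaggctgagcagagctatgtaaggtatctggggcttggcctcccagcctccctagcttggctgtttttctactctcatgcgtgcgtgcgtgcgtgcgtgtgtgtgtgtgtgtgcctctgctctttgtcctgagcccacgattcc

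Of the 38 genes, 30 had a promoter window of 250 bases before to 50 after the start site in the RefSeq table. A CArG box on either strand was found in 3 of these 30 (10.0%), against 1.23% of 15426 promoters, and a MEF2 box in 4 (13.3%), against 2.11%. TATAAA was found in 2 (6.67%), against 9.50%. Genes with 1 of these boxes stood at very different levels. ATP2A2 averaged 204 RPKM over the 8 libraries (reads per length of the gene and per depth of the library) and CASQ2 was listed at 0 in every one, both with MEF2 boxes. With a CArG box each, ACTC1 averaged 1.03 RPKM and MYL7 at most 0.122 RPKM in any group. The ratio of observed to expected CpG, which is high in the promoters of broadly used genes, had a median of 0.69 in the 10 genes of the set with at least 1 RPKM and 0.38 in the 20 under it. Over all genes the medians were 0.85 and 0.37 at the same limit, so the split by level was also that of genes in general.

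Most of the set was low or not detected, and it fell into 4 classes. In 12 genes (31.6% of the set, against 61.5% of all genes) the mean reached 1 RPKM in at least 1 group. Another 10 stayed below that with 3 or more reads in at least 1 library, 9 never reached 3 reads in any library, and 7 were listed at 0 in all 8. Those 7 were MYL2, CASQ2, KCNQ1, NKX2-5, TBX5, HAND1 and MB. At these depths of 21538898 to 27372851 reads, 3 reads in 1 kb of coding sequence are worth 0.11 to 0.139 RPKM, so a gene at 0 may still be transcribed below that level. This floor covers counting error only. In bulk RNA, fewer cells of a type and less RNA per cell cannot be told apart.

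**Figure D1:**
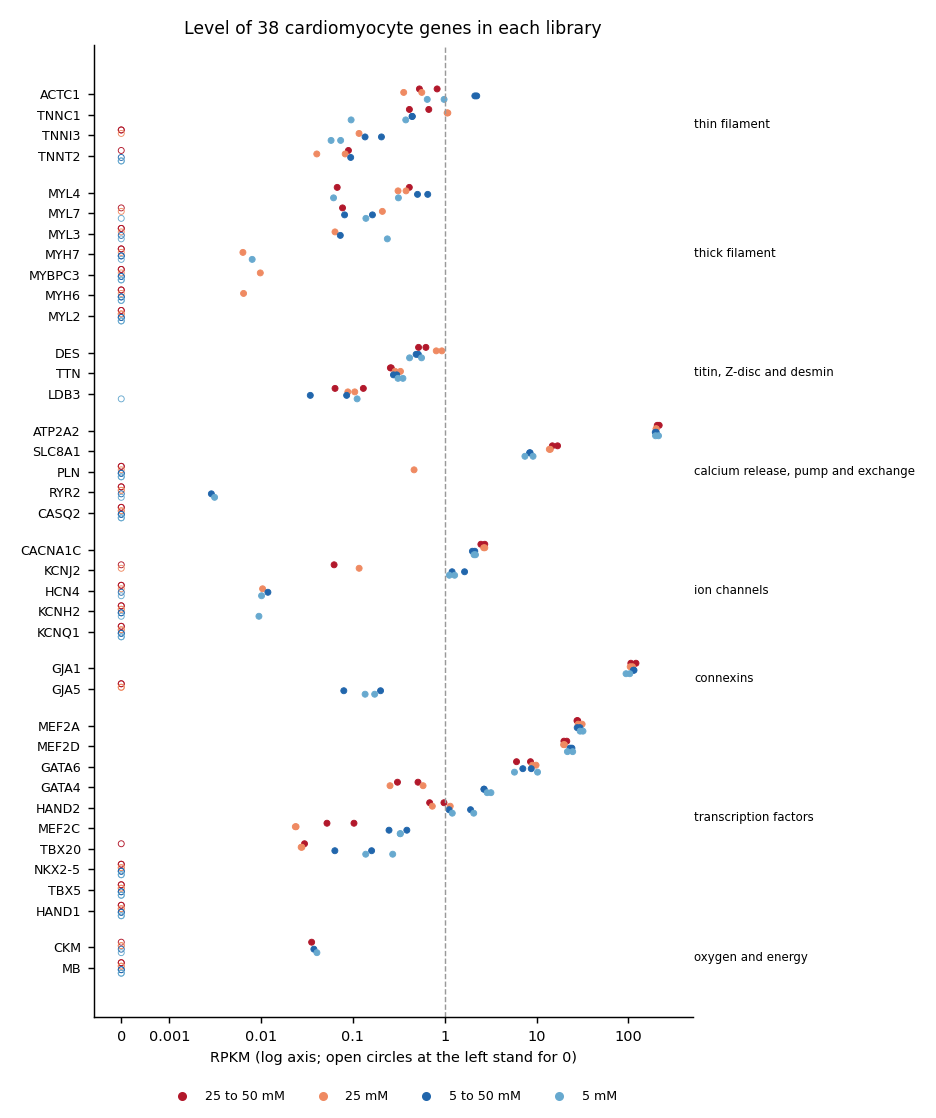
Level of each of the 38 genes in each of the 8 libraries, in RPKM on a log axis, grouped by role, with colours for the 4 glucose groups and open circles for 0. Only 12 genes reach a group mean of 1 RPKM (dashed line), and ATP2A2 and GJA1 are the 2 near or above 100 RPKM.

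The contractile filament genes of the set were nearly silent in these cells, which the labels call a human cardiomyocyte line. Only ACTC1, cardiac alpha-actin, and TNNC1, the calcium-binding troponin C of heart and slow muscle, reached 1 RPKM among the 11 genes of the thin and thick filaments. Summed over the 11 genes, the libraries held 40 and 21 reads at 25 to 50 mM, 42 and 37 at 25 mM, 75 and 77 at 5 to 50 mM, and 34 and 29 at 5 mM. Without ACTC1 and TNNC1 the sums were 1 to 16 reads per library. TNNT2, cardiac troponin T and the usual marker of cardiomyocytes, had at most 2 reads in any library. Of the cardiac myosin heavy chains, MYH6 had 1 read in all 8 libraries and MYH7 had 1 read in each of 2. MYBPC3, the myosin-binding protein of cardiac thick filaments, had 1 read in all, and MYL2, the ventricular regulatory light chain, had 0. TNNI3, the inhibitory troponin subunit of the heart, had 0 to 3 reads per library, as did the ventricular light chain gene MYL3 and the atrial light chain gene MYL7. MYL4, the other atrial light chain gene, had 1 to 9 reads.

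The giant spring protein titin had the most reads of the sarcomere genes in the set, over a very long coding sequence. TTN had 735 and 731 reads at 25 to 50 mM, 1005 and 895 at 25 mM, 802 and 734 at 5 to 50 mM, and 863 and 969 at 5 mM, spread over 114431 coding bases. Per length this was a level of only 0.256 to 0.35 RPKM. Both libraries at 25 to 50 mM lay below both at 25 mM. The same held for 29.1% of 11422 genes that, unlike TTN, reached 1 RPKM in 2 or more of these libraries. Voom on the reads did not call the TTN change (log2 change -0.25, SE 0.085, adjusted p = 0.445). DES, desmin, which ties the Z-discs of muscle together, averaged 0.571 ± 0.0742 RPKM at 25 to 50 mM and 0.868 ± 0.0856 RPKM at 25 mM (SD, n = 2 each). At 5 to 50 mM it averaged 0.501 ± 0.0197 RPKM and at 5 mM 0.486 ± 0.102 RPKM (SD, n = 2 each). LDB3, a Z-disc protein, had 0 to 8 reads per library.

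Most of these families were instead represented by members used in the cytoskeleton of many cells or in other muscle. The troponins were mixed: TNNT1, the slow skeletal troponin T, averaged 37.3 RPKM over the 8 libraries, against 0.0383 RPKM for TNNT2, while TNNC1 (0.572 RPKM) and TNNI3 (0.0735 RPKM) led the troponin C and troponin I genes at low levels. Among myosin heavy chains MYH9 averaged 604 RPKM and MYH10 32.8 RPKM, and MYL6 (3122 RPKM) and MYL12A (1369 RPKM) led the light chains. Actin reads lay in ACTB (7612 RPKM) and ACTG1 (3416 RPKM). The smooth muscle actins ACTG2 (64.5 RPKM) and ACTA2 (15.7 RPKM) also stood far above ACTC1, and since their coding sequences are close to that of ACTC1, reads may have been split between them. In place of desmin the main intermediate filament gene was VIM (4036 RPKM), and PDLIM1 (118 RPKM) and PDLIM7 (101 RPKM) led the PDZ-LIM family of LDB3. CKB, the brain-type creatine kinase, averaged 14.9 RPKM, against 0.0142 RPKM for the muscle form CKM. CYGB, cytoglobin, averaged 4.95 RPKM, while myoglobin (MB) was listed at 0.

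**Figure D2:**
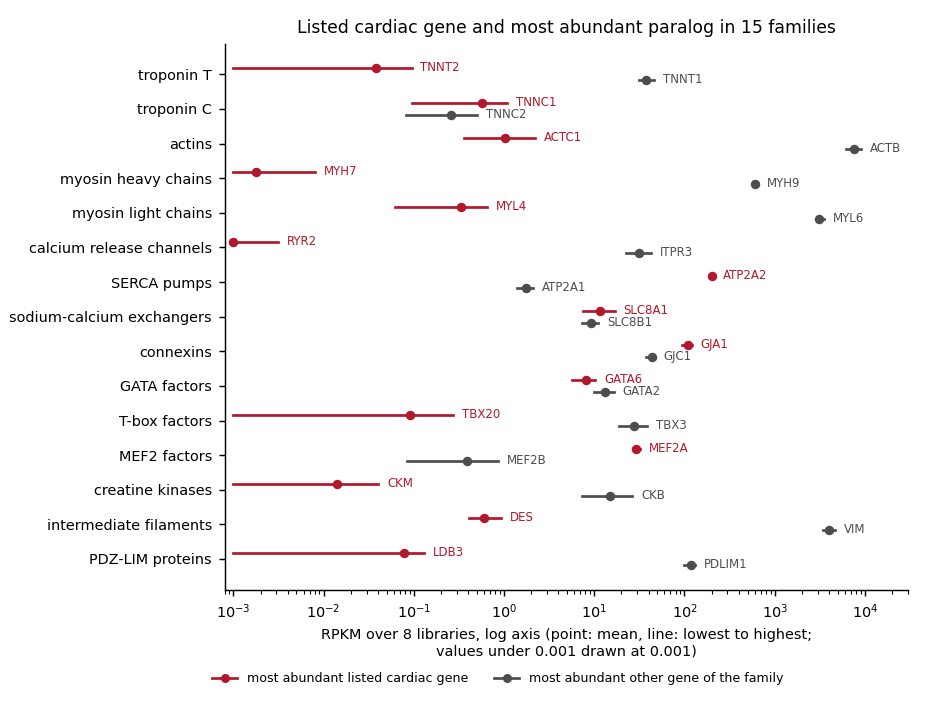
Mean RPKM over the 8 libraries (log axis) of the most abundant gene of the set, in red, and of its most abundant relative outside the set, in grey, in 15 gene families, with lines from the lowest to the highest library. The gene of the set leads in the SERCA pumps, exchangers, connexins, MEF2 factors and troponin C, and trails by far in the myosins, actins, troponin T and calcium release channels.

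Among the calcium handling genes of the set, those that many cells share were detected, while PLN, RYR2 and CASQ2 were at or near 0. ATP2A2, which encodes the SERCA pump of the heart and of most other tissues, was the highest of the set. It stood at 206 and 216 RPKM at 25 to 50 mM, 200.3 and 200.4 RPKM at 25 mM, 196 and 201 RPKM at 5 to 50 mM, and 213 and 197 RPKM at 5 mM. The highest library was 1.10 times the lowest, and in no comparison did the pump gene pass the test. PLN, phospholamban, the brake on this pump in cardiac muscle, had 2 reads in 1 library and 0 in the other 7. RYR2, the cardiac ryanodine receptor, had 1 read in each of 2 libraries, and the calcium buffer of the sarcoplasmic reticulum, CASQ2, had 0. The most abundant calcium release channel genes were the inositol trisphosphate receptors ITPR3 (31.6 RPKM), ITPR2 (4.22 RPKM) and ITPR1 (0.976 RPKM). Calcium handling genes outside the set were mixed: JPH2 (2.72 RPKM) and FKBP1B (5.84 RPKM) were detected, while TRDN and SLN were at 0.

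The exchanger and the channels held the first differences between libraries started at 25 mM and at 5 mM, which also come from separate tables. SLC8A1, the sodium-calcium exchanger of the heart, stood at 14.8 and 16.9 RPKM at 25 to 50 mM and 14.1 and 13.8 RPKM at 25 mM. It stood at 8.39 and 8.49 RPKM at 5 to 50 mM and 9.14 and 7.46 RPKM at 5 mM. All 4 libraries from cells kept at 25 mM were above all 4 from cells kept at 5 mM. The same held for 21.9% of 11941 genes with at least 1 RPKM in 2 or more libraries. CACNA1C, the pore of the L-type calcium channel, stood at 2.73 and 2.47 RPKM at 25 to 50 mM, 2.73 and 2.65 RPKM at 25 mM, 2.12 and 2.00 RPKM at 5 to 50 mM, and 2.08 and 2.16 RPKM at 5 mM. The split by starting glucose was the same, with a smaller gap. KCNJ2, an inward rectifier potassium channel that holds the resting potential of heart and muscle cells, had 0 and 2 reads at 25 to 50 mM, 4 and 0 at 25 mM, 36 and 49 at 5 to 50 mM, and 31 and 45 at 5 mM. It was thus near 0 in all libraries from 25 mM and reached 1.12 to 1.64 RPKM in those from 5 mM. The other channels were all but absent: KCNH2, which carries the rapid repolarizing current, had 1 read in all libraries, the pacemaker channel gene HCN4 had 3, and KCNQ1 had 0. Their relatives HCN3 (1.68 RPKM) and KCNQ5 (2.78 RPKM) were detected.

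GJA1, the main connexin of working heart muscle and also of fibroblasts, was the other abundant gene of the set. Its levels were 106 and 121 RPKM at 25 to 50 mM, 111 and 104 RPKM at 25 mM, 115 and 113 RPKM at 5 to 50 mM, and 103 and 94.1 RPKM at 5 mM. GJA5, the connexin of atria and conduction fibres, had 0 reads in all 4 libraries from 25 mM, and 2 and 5 reads at 5 to 50 mM and 4 and 4 at 5 mM.

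Of the 10 lineage factors, 5 reached 1 RPKM. MEF2A and MEF2D, MEF2 factors that are broadly expressed, lay at 27.5 to 32.0 RPKM and 19.7 to 24.7 RPKM over the 8 libraries. GATA6, which acts in heart, gut and lung development, stood at 8.58 and 6.04 RPKM at 25 to 50 mM, 9.02 and 9.86 RPKM at 25 mM, 8.74 and 7.08 RPKM at 5 to 50 mM, and 5.74 and 10.2 RPKM at 5 mM. Its 2 libraries at 5 mM spanned the values of all other libraries. GATA4, its partner in early heart development, stood at 0.305 and 0.511 RPKM at 25 to 50 mM and 0.253 and 0.58 RPKM at 25 mM. It stood at 2.67 and 2.68 RPKM at 5 to 50 mM and 2.89 and 3.18 RPKM at 5 mM. The libraries from 25 mM thus lay far below those from 5 mM, with no overlap. Of 11941 genes with at least 1 RPKM in 2 or more libraries, 26.5% were also lower without overlap. HAND2, a factor of the right ventricle and of the pharyngeal arches, stood at 0.684 and 0.979 RPKM at 25 to 50 mM, 1.15 and 0.732 RPKM at 25 mM, 1.11 and 1.91 RPKM at 5 to 50 mM, and 1.21 and 2.07 RPKM at 5 mM. MEF2C, the MEF2 factor of the early heart field, had 2 and 4 reads at 25 to 50 mM, 1 and 1 at 25 mM, 9 and 14 at 5 to 50 mM, and 11 and 14 at 5 mM. TBX20 had 0 and 1 reads at 25 to 50 mM, 1 and 1 at 25 mM, 2 and 5 at 5 to 50 mM, and 4 and 10 at 5 mM. NKX2-5, TBX5 and HAND1, which with GATA4 are core factors of cardiac progenitors, were listed at 0 throughout. The most abundant T-box genes were TBX3 (27.5 RPKM), a factor of the conduction system and of many other tissues, and TBX18 (17.9 RPKM), known from the epicardium and the sinus node.

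Markers of other cell types put the label in context. Of 15 fibroblast markers, all reached 1 RPKM. They summed to 7738 to 8332 RPKM at 25 to 50 mM, 7498 to 7760 RPKM at 25 mM, 8594 to 8862 RPKM at 5 to 50 mM and 8029 to 8517 RPKM at 5 mM. A large part of these sums was VIM, at means of 3627, 3577, 4530 and 4408 RPKM in the same order of groups. Of 8 smooth muscle markers, 6 reached 1 RPKM. Their sums were 968 to 993 RPKM at 25 to 50 mM, 621 to 647 RPKM at 25 mM, 1515 to 1586 RPKM at 5 to 50 mM and 1097 to 1123 RPKM at 5 mM, mostly from TAGLN. None of 10 skeletal muscle markers reached 1 RPKM, and MYOD1, MYOG, PAX7 and TNNI2 were at 0. Of 6 endothelial markers 1 reached it and CDH5 was at 0, while all 6 cycling markers did, at 1414 to 1693 RPKM summed. In libraries labelled as cardiomyocyte, the cardiac myosin heavy chains, TNNT2, RYR2, CASQ2, PLN, NKX2-5, TBX5 and HAND1 were thus at or near 0. GATA6, MEF2A and MEF2D stood above 1 RPKM in every library. GATA4 and HAND2 reached a group mean of 1 RPKM only at 5 to 50 mM and 5 mM.

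The question of the study was what a rise to 50 mM glucose does to cells kept at 25 mM or at 5 mM. The limma test was run on log2(RPKM + 1) for every gene that reached 1 RPKM in 2 or more of the libraries fitted, and p-values were adjusted over all of them by Benjamini-Hochberg. On this scale the changes of low genes are understated. Of the set, 8 genes passed this filter in the 25 to 50 mM comparison, 11 in the 5 to 50 mM comparison and 12 over all 8 libraries. ACTC1, TNNC1, KCNJ2, GATA4 and HAND2 passed only through the groups where they were high, so the counts below describe those tested and not the set.

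After the rise to 50 mM from 25 mM, none of the 8 genes tested was called, as with nearly all genes (0.00876% of 11422 were called, 1 gene). At an unadjusted p under 0.05, 1 of the 8 was lower, where 6.45% of all genes were. It entered the fit only through the 25 mM libraries, so nothing is read from this count. The gene was TNNC1, at 0.67 and 0.412 RPKM at 25 to 50 mM (8 and 5 reads), against 1.08 and 1.06 RPKM at 25 mM (14 and 14 reads), a log2 change of -0.43 (SE 0.14, limma adjusted p = 0.502). Both its libraries at 25 to 50 mM lay below both at 25 mM, as in 29.1% of all genes tested, and the change rests on a few reads. The median log2 change was 0.0044 over the 8 genes and -0.035 over all genes tested. Calling with voom on the recovered reads also gave 0 of the 8. GATA6, with a log2 change of -0.34 (SE 0.15, limma adjusted p = 0.543), was called only without replicate 2 at 25 to 50 mM (log2 change -0.57, limma adjusted p = 0.0205), where 777 genes were called in all.

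After the rise from 5 mM, again none of the 11 genes tested was called, where 0.329% of 11849 genes were, 39 genes. At an unadjusted p under 0.05, 2 of the 11 were higher, ACTC1 and GJA1, where 5.16% of all genes were. ACTC1 entered the fit through the 5 to 50 mM libraries, so this count is a description only. The cardiac actin gene stood at 2.23 and 2.13 RPKM at 5 to 50 mM (59 and 56 reads), against 0.983 and 0.644 RPKM at 5 mM (24 and 20 reads). Both raised libraries were thus above both controls, as in 16.6% of all genes tested. The log2 change was 0.82 (SE 0.14, 95% interval 0.47 to 1.16), but the limma adjusted p was 0.136. In the other pair ACTC1 stood at 0.825 and 0.529 RPKM at 25 to 50 mM and 0.562 and 0.357 RPKM at 25 mM, groups that overlapped, and it did not pass the filter there. The rise of ACTC1 from 5 mM passed the threshold in only 3 of 12 alternatives. Among them was the fit over all 8 libraries (limma adjusted p = 0.0474), which also called more genes in all than the main fit. The others each left out a library at 5 mM, which leaves 1 in that group. Of the closely related actins, ACTG2 averaged 108 ± 4.67 RPKM at 5 to 50 mM and 81.7 ± 7.59 RPKM at 5 mM (SD, n = 2 each), with a limma adjusted p of 0.209, and ACTA2 averaged 23.6 ± 0.19 RPKM at 5 to 50 mM and 22.9 ± 0.963 RPKM at 5 mM (SD, n = 2 each). The summed smooth muscle markers given above were also higher at 5 to 50 mM than at 5 mM, but most of that sum was TAGLN. Neither the sharing of reads between actins nor the marker level was tested for a part in the ACTC1 value.

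The connexin GJA1 had a log2 change of 0.21 in the rise from 5 mM (SE 0.066, limma adjusted p = 0.376), and among the alternatives it was called only without replicate 1 at 5 mM (log2 change 0.27, limma adjusted p = 0.0303), where 805 genes were called in all. The remaining 9 tested had log2 changes between -0.13 (GATA4) and 0.13 (KCNJ2). The median over the 11 was 0.028 and over all genes tested -0.028, and voom on the recovered reads called 0 of the 11.

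**Figure D3:**
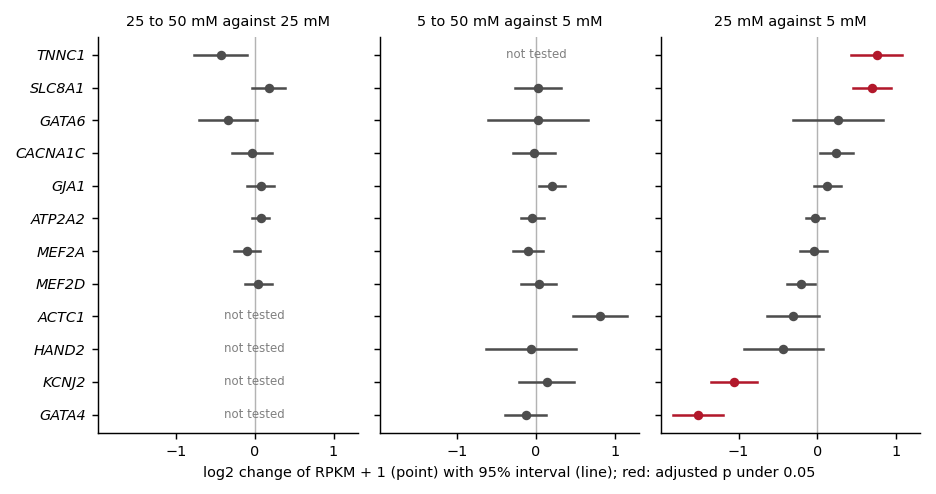
Log2 change of RPKM + 1 with its 95% interval for each gene of the set that passed the filter, in the 3 comparisons, with limma calls in red. No gene is called in either rise to 50 mM, and GATA4, KCNJ2, SLC8A1 and TNNC1 are called between the cultures kept at 25 mM and at 5 mM.

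Whether the rises differed was tested as the rise from 25 mM minus the rise from 5 mM in a fit of all 8 libraries. None of 12 genes of the set was called, where 0.0251% of 11941 genes were, 3 genes. At an unadjusted p under 0.05, 2 of the 12 were lower, TNNC1 with a log2 difference of -0.66 (SE 0.20, limma adjusted p = 0.603) and ACTC1 with -0.62 (SE 0.20, limma adjusted p = 0.696), where 3.74% of all genes were. Both entered the fit through groups where they were high, so nothing is read from this count. Voom on the recovered reads called 0 of the 12.

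The libraries from cells kept at 25 mM and at 5 mM come from separate tables. Starting glucose and any difference in how the tables were made thus cannot be told apart. The groups kept at 25 mM and at 5 mM differed in 4 of the 12 genes tested, where 39.1% of 11941 genes did. Of these 4, GATA4, KCNJ2 and TNNC1 passed the filter through the groups where they were high, so nothing is read from the share. SLC8A1 and TNNC1 were higher at 25 mM and GATA4 and KCNJ2 lower, while 2032 genes in all were higher (17.0%) and 2639 lower (22.1%). That overall split was 2648 higher and 2068 lower after quantile normalization, under which these 4 calls were unchanged in direction. The median log2 change was -0.040 over the 12 and -0.0040 over all genes tested.

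GATA4 averaged 0.417 ± 0.231 RPKM at 25 mM and 3.04 ± 0.204 RPKM at 5 mM (SD, n = 2 each). This was a log2 change of -1.52 (SE 0.14, 95% interval -1.84 to -1.20, limma adjusted p = 0.000127). On the reads themselves, 9 and 21 at 25 mM against 83 and 116 at 5 mM, voom gave a log2 change of -2.94 (adjusted p = 0.000264). KCNJ2 (chr17:70169532-70180044) averaged 0.0584 ± 0.0826 RPKM at 25 mM and 1.20 ± 0.113 RPKM at 5 mM (SD, n = 2 each), with a log2 change of -1.06 (SE 0.13, limma adjusted p = 0.000508). Its relatives KCNJ4 and KCNJ12 reached at most 0.0643 and 0.0288 RPKM in any library.

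SLC8A1 (chr2:40097270-40512435) averaged 13.9 ± 0.242 RPKM at 25 mM and 8.30 ± 1.19 RPKM at 5 mM (SD, n = 2 each), with a log2 change of 0.69 (SE 0.10, 95% interval 0.45 to 0.93, limma adjusted p = 0.00157). With 593 to 1278 reads per library it was the best covered of the 4. TNNC1 (chr3:52451100-52454041) averaged 1.07 ± 0.0139 RPKM at 25 mM and 0.236 ± 0.198 RPKM at 5 mM (SD, n = 2 each), with a log2 change of 0.75 (SE 0.14, limma adjusted p = 0.00421). It had 1 and 5 reads at 5 mM, and without either library at 25 mM it no longer passed the filter. The 10 skeletal muscle markers, with none at 1 RPKM, summed to 0.528 to 0.624 RPKM at 25 mM and 0.159 to 0.165 RPKM at 5 mM. Their sum was 0.628 to 0.653 RPKM at 25 to 50 mM, where TNNC1 averaged 0.541 RPKM. At 5 to 50 mM it was 0.186 to 0.215 RPKM, where TNNC1 averaged 0.442 RPKM. The slow skeletal gene TNNT1 was lower at 25 mM than at 5 mM (log2 change -0.28). The part of such genes in the TNNC1 value was not tested. CACNA1C, which averaged 2.69 ± 0.0534 RPKM at 25 mM and 2.12 ± 0.0531 RPKM at 5 mM (SD, n = 2 each), missed the threshold with a log2 change of 0.24 (SE 0.088, limma adjusted p = 0.0639). Voom on its 319 to 517 reads per library called it (log2 change 0.34, adjusted p = 0.0122). MEF2D, with a log2 change of -0.21 (SE 0.078, limma adjusted p = 0.0701), was called without replicate 1 at 5 mM (log2 change -0.30, limma adjusted p = 0.0183). GATA6 (log2 change 0.26, SE 0.24) was called without replicate 3 at 5 mM (log2 change 0.63, limma adjusted p = 0.04), and turned to -0.11 without replicate 1.

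**Figure D4:**
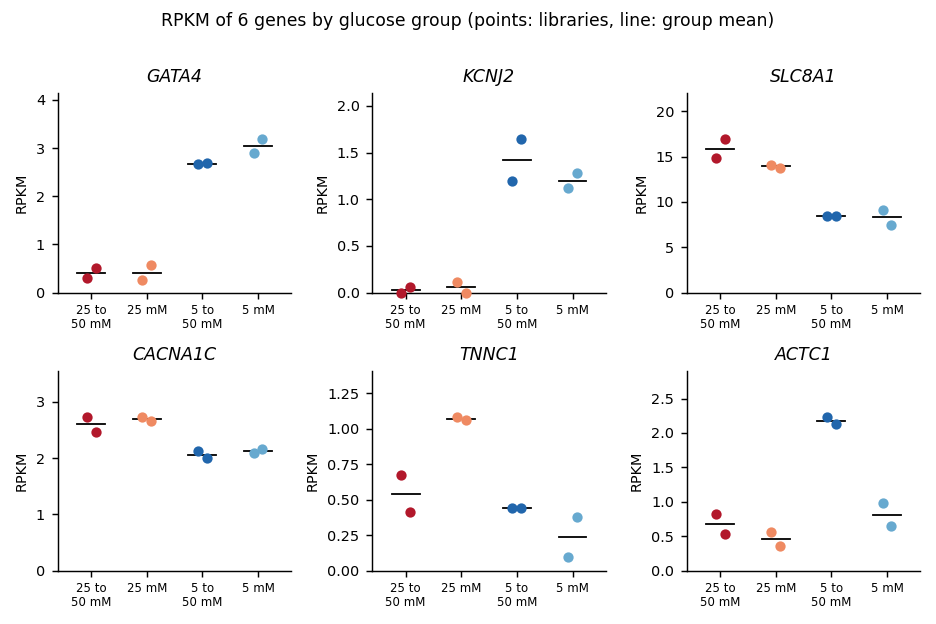
RPKM of 6 genes in each library (points) with the group mean (line), for the 4 glucose groups. GATA4 and KCNJ2 lie low in all 4 libraries from cells kept at 25 mM, SLC8A1 and CACNA1C lie higher in them, TNNC1 is highest at 25 mM and ACTC1 at 5 to 50 mM.

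Below the filter, voom was also run on all genes with at least 10 reads over the fitted libraries, a setting chosen after seeing the data. Of 19 genes of the set tested between 25 mM and 5 mM, 8 were called, where 37.0% of 14360 genes were. The 4 above and CACNA1C were joined by MEF2C (adjusted p = 0.00362), GJA5 (adjusted p = 0.00876) and TBX20 (adjusted p = 0.0371), all lower at 25 mM, each with 0 or 1 read per library there. These 3 genes reached 10 reads only through the libraries from 5 mM, so they were tested because they were high in them. DES, with 35 and 31 reads at 25 mM against 17 and 16 at 5 mM, missed it (adjusted p = 0.0518). The libraries from 25 mM also held fewer detected genes in general, 14383 to 14540 above 0, against 14841 to 15081 in those from 5 mM. Reads in genes under 1 RPKM in every library summed to 20926 to 26112 in the libraries from 25 mM and 27878 to 37438 in those from 5 mM. The part of this in the lower values of MEF2C, GJA5, TBX20, KCNJ2 and GATA4 was not tested. The same setting called none of 15 genes of the set in the rise from 25 mM (0.0592% of all genes) and none of 19 in the rise from 5 mM (0.386%). It called no gene at all, in the set or outside it, for the difference between the rises.

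**Figure D5:**
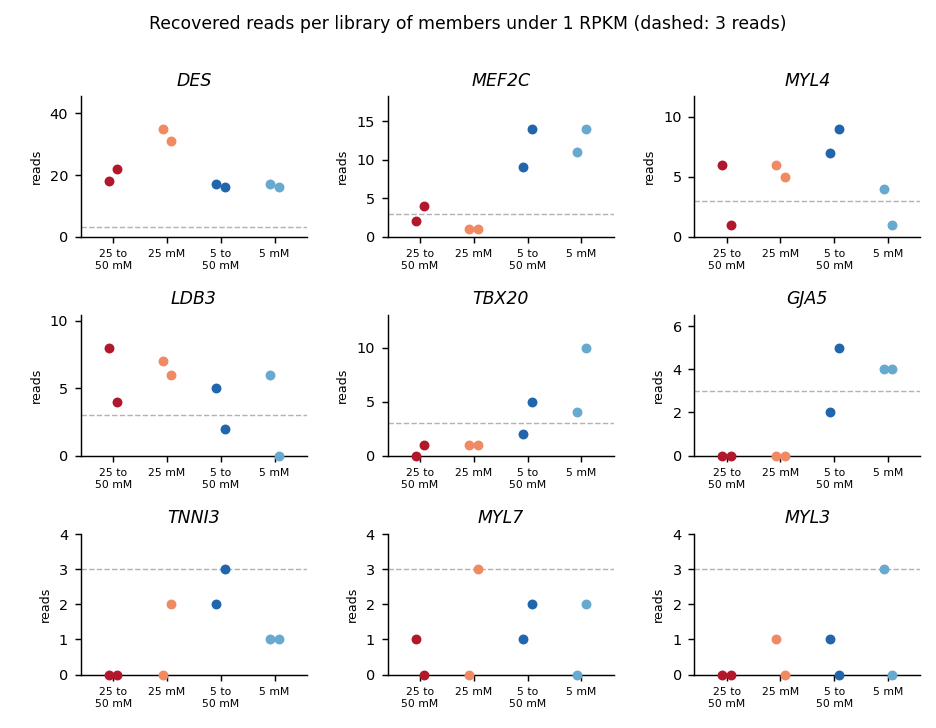
Recovered reads per library of 9 genes of the set that stayed under 1 RPKM but had 3 or more reads in at least 1 library, for the 4 glucose groups, with a dashed line at 3 reads. MEF2C, TBX20 and GJA5 have more reads in the libraries from cells kept at 5 mM, and DES has the most at 25 mM.

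Around the set, 100 further genes of the cardiac muscle program were read from the same fits. In the rise from 25 mM none of 41 tested was called, where 0.00876% of 11422 genes were. In the rise from 5 mM 2 of 46 were, both higher, where 0.329% of 11849 genes were called. The list was chosen with earlier results of these data known, so nothing is read from these counts. TPM1, a tropomyosin, stood at 654 ± 8.93 RPKM at 5 to 50 mM and 390.2 ± 0.63 RPKM at 5 mM (SD, n = 2 each, limma adjusted p = 0.0269). ANKRD1, a stress-responsive titin-binding protein, stood at 38.1 ± 3.76 RPKM at 5 to 50 mM and 16.3 ± 1.03 RPKM at 5 mM (SD, n = 2 each, limma adjusted p = 0.0269). Both are also expressed outside the heart. These calls depend on the fit, since no gene at all was called in this rise without the filter, without the trend, with a replicate block over all 8 libraries, or without replicate 2 at 5 to 50 mM. None of 46 was called for the difference between the rises, where 0.0251% of 11941 genes were.

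Between the cultures kept at 25 mM and 5 mM, 9 of these 46 genes were higher and 11 lower by limma adjusted p, where 17.0% and 22.1% of all genes were. Of the 6 sarcomere genes tested, CRYAB (log2 change 0.71), a small heat shock protein, and MYPN (0.81), a Z-disc protein, were higher and ANKRD1 (-2.44) was lower. Of 13 calcium handling genes, the plasma membrane calcium pump ATP2B4 (0.46) was higher, and 3 were lower, among them its relative ATP2B1 (-1.11) and the calcium release channel gene ITPR1 (-0.72). Of 4 ion channel genes, 3 were lower, among them KCNJ8 (-0.82) and ABCC9 (-0.84), the pore and regulatory subunits of an ATP-sensitive potassium channel. Like KCNJ2, both were under 2 RPKM in every group mean. Of 7 genes of the intercalated disc, the cadherin CDH2 (0.24) and the scaffold TJP1 (0.48) were higher and plakoglobin, JUP (-1.58), lower. Of 12 lineage factors, MYOCD (0.74), NR2F2 (0.41), TBX18 (0.34) and TEAD1 (0.49) were higher and TBX3 (-0.49) lower. Of 4 metabolic genes, the fatty acid binding protein FABP3 (-2.39) and the fatty acid receptor PPARA (-0.90) were lower.

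The relatives of the set and the marker genes were read from the same fits between 25 mM and 5 mM. Among relatives, ACTB, ACTG1, GATA2 and PDLIM1 were called higher, beside TBX18. Called lower, beside ITPR1 and TBX3, were TNNT1, MYL5, MYL9, ACTA2, ACTG2, ITPR2, ITPR3, SLC8B1, KCNQ5, GATA3, CKB, CYGB, VIM, SYNM, NES and PDLIM5. The changes farthest from 0 among these relatives were those of the smooth muscle actins ACTA2 (log2 -1.62) and ACTG2 (log2 -1.57) and of CYGB (log2 -1.58), the globin cytoglobin. Of the 15 fibroblast markers, COL1A1, COL1A2, COL3A1, DCN, PDGFRB and THY1 were higher and FAP, FN1, PDGFRA, S100A4, TCF21 and VIM lower. Of the 6 smooth muscle markers tested, CNN1 and MYOCD were higher and TAGLN and ACTA2 lower, and of the 6 cycling markers BIRC5 and CCNB1 were higher.

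TAGLN, which encodes the smooth muscle protein transgelin, was the only gene of these lists called in both rises. It averaged 869 ± 9.80 RPKM at 25 to 50 mM and 530 ± 14.7 RPKM at 25 mM (SD, n = 2 each), a log2 change of 0.71 (SE 0.042, limma adjusted p = 0.022). It averaged 1420 ± 51.8 RPKM at 5 to 50 mM and 993 ± 29.7 RPKM at 5 mM (SD, n = 2 each), a log2 change of 0.52 (SE 0.056, limma adjusted p = 0.0479). No gene was called in the rise from 25 mM without the filter, without the trend, with the replicate block, or when either library at 25 mM was left out, so this call too depends on the fit.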

How the data were processed

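Per the labels' protocols, total RNA of AC16 cultures was extracted with TRIzol and sequenced. Per the submitters' processing notes, STAR and the hg38 build were used; the counting tool and annotation are not given in the sources used here. The authors deposited RPKM values in 2 tables, 1 per starting glucose, joined here by gene ID. Solving these values for whole reads (100% of genes whole within 0.01 reads) gave library totals of 21538898 to 27372851 and gene lengths. Those lengths match coding sequence (73.8% within 2% of the GENCODE 29 coding union, 0.4% of the exon union), and whether UTR reads were counted is not given in the sources used here.

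The limma test (version 3.58.1, under R 4.3.3; mean-variance trend, two-sided, Benjamini-Hochberg, threshold 0.05) took log2(RPKM + 1) of each gene that reached 1 RPKM in 2 or more of the libraries fitted. Each rise was fitted on its own 4 libraries. The comparison of 25 mM with 5 mM and the difference between the rises used all 8, since the upper quartiles of RPKM differed by 1.06 times at most. The tables may have been made separately, which cannot be told apart from starting glucose. The test and the read recovery were tested on simulated data. Alternatives were another pseudocount, filters, scalings, voom, other sets of libraries, a replicate block and leaving out each library. Within each group the chi-square per degree of freedom between libraries was 2.60 to 16.6, above counting error, so no library was counted as a copy. The set and the further lists were chosen with earlier results of these data known. Genes with a group mean of at least 1 RPKM are given by library, the others by reads; of further lists, called genes and the leading family members are named, except for 2 genes not reported here.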

Additional observations from a re-analysis of the deposited data

How the results depend on the processing

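GATA4, KCNJ2, SLC8A1 and TNNC1 kept their direction between 25 mM and 5 mM in every alternative that could test them. Log2 changes ran from -2.94 to -1.15 for GATA4 (18 alternatives), and from -4.82 to -0.615 for KCNJ2 (18). They ran from 0.557 to 0.819 for SLC8A1 (19) and from 0.589 to 2.13 for TNNC1 (16). Under the 1 RPKM filter GATA4, KCNJ2 and TNNC1 entered through the groups where they were high, so most alternatives repeat that selection. TNNC1 was not tested without either library at 25 mM. Between 25 mM and 5 mM the main fit called 4 of 12 genes of the set, against 39.1% of 11941 genes. Voom at 10 reads called 8 of 19, against 37.0% of 14360 genes. For the other settings the shares called are not given, so nothing about the set against all genes is read from those counts. Calls in the set there numbered 8 without the filter, 1 with a mean of at least 5 RPKM, 8 with voom at 10 reads, and 3 to 5 without single libraries. Over all genes they were 3024 to 4769 without single libraries. In the rise from 25 mM, 1 gene in all was called; this was 0 without the filter, 4 with median centring, 2 with quantile normalization, 0 without the trend, 3 with the robust fit, 7 with voom, 8 with voom at 10 reads, 4 in the fit of all 8 libraries and 0 to 777 without single libraries, with 0 to 1 in the set. In the rise from 5 mM, 39 genes became 0 without the filter, 60 with median centring, 61 with quantile normalization, 0 without the trend, 130 in the fit of all 8 libraries and 0 to 805 without single libraries, with 1 in the set in the fit of all 8 and 0 to 2 without single libraries. For the difference between the rises, 3 genes became 0 with a pseudocount of 0.1, 1 without the filter, 0 with a mean of at least 5 RPKM, 1 without the trend, 0 with voom at either filter and 0 to 6 without single libraries. Where these counts moved the cause was not tested.

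The replicate numbers were not taken to pair the samples, since no label says what a number shares and each rise's groups share only 1 number. The 25 mM and 5 mM groups share 2, and their same-numbered libraries deviated together with a correlation of 0.26, which is too few pairs to settle it. With a replicate block over all 8 libraries, calls fell to 0 in each rise and in their difference. The 4 calls between 25 mM and 5 mM stayed past the threshold, with adjusted p of 0.000684 (GATA4), 0.0044 (KCNJ2), 0.00943 (SLC8A1) and 0.0165 (TNNC1).

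Of 521 recomputed values of single genes, 20 changed sign, none of them called in the report. In the rise from 25 mM, CACNA1C was 0.012 with median centring and 0.054 with quantile normalization, and without single libraries CACNA1C ran from -0.087 to 0.014, MEF2D from -0.0036 to 0.095 and GJA1 from -0.017 to 0.17. In the rise from 5 mM without single libraries, GATA6 ran from -0.34 to 0.40, MEF2D from -0.059 to 0.12, HAND2 from -0.31 to 0.17, CACNA1C from -0.058 to 7.6e-05, ATP2A2 from -0.10 to 0.0071 and SLC8A1 from -0.10 to 0.16. Between 25 mM and 5 mM, quantile normalization gave 0.17 for ACTC1 and 0.040 for ATP2A2, and without single libraries MEF2A ran from -0.12 to 0.021, ATP2A2 from -0.085 to 0.022 and GATA6 from -0.11 to 0.63. Depth limits the genes with a few reads, where 3 reads are the floor.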
